A study of Mus musculus with 9 samples.

Results

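MIN6 cells given EGCG upon Nr4a1 overexpression were compared with untransfected MIN6 control cells, by RNA-seq of total RNA, with 3 libraries in each group. MIN6 is a mouse insulinoma line that makes and secretes insulin and serves as a model of pancreatic beta cells. The comparison takes 6 of the 9 libraries of the series, chosen by their labels. The other 3, from cells that overexpress Nr4a1 without EGCG, are quoted beside a few results as values and enter no test here. Of 52408 genes with a value, 11641 had at least 1 TPM in at least 3 of the 6 libraries and were tested.

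The groups differ in 3 ways at once: the control cells were not transfected, the others carry the Nr4a1 construct, and the others received EGCG. In this comparison the 3 cannot be told apart. For the dose and duration of EGCG, the construct and the way it was introduced, nothing is stated in the labels. All libraries are labelled batch 1. Whether the 3 libraries of a group came from separate cultures is not stated, and the p-values then measure only the spread between libraries, which may be technical.

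Nr4a1 (also called Nur77) is an orphan nuclear receptor that is induced quickly by many stimuli. It binds DNA alone at an octamer known as the NBRE, or as a dimer with itself or with the retinoid X receptor. In beta cells it has been tied to mitochondrial metabolism, insulin gene regulation and stress. EGCG, epigallocatechin gallate, is the main catechin of green tea. It is an antioxidant, oxidises readily in culture medium, binds iron and inhibits many enzymes in vitro. Beta cells take up glucose through Slc2a2 (GLUT2), oxidise it in mitochondria and release insulin when ATP closes potassium channels. Their identity is kept by transcription factors such as Pdx1, Mafa, Nkx6-1 and Neurod1.

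Expression is given in TPM, which corrects for transcript length and expresses each transcript as part of the library's sum. The values are those the authors deposited, added up per gene. A fold change is a difference of mean log2(TPM + 1), EGCG with Nr4a1 minus control, given with its standard error (SE). It understates the change of genes at low TPM. "Rose", "fell", "higher" or "called" refers to limma with a Benjamini-Hochberg adjusted p under 0.05 over all 11641 genes, and means carry an SD over n = 3 libraries. TPM keeps no record of sequencing depth, which is therefore unknown. A gain of abundant RNAs lowers the TPM of everything else.

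Small noncoding RNA genes, mostly the 7SL genes Rn7s1 and Rn7s2, held 44.2% ± 0.826 of the TPM in control and 48.9% ± 0.855 with EGCG and Nr4a1 (SD, n = 3 each). The shares of nuclear protein-coding genes were 21.5% ± 0.267 and 20.6% ± 0.261. Beta cell markers summed to between 18808.7 and 20942.7 TPM in control and between 20872.0 and 21993.2 TPM in the other group. Most of these sums was Ins2, with means of 16107.9 and 17195.2 TPM. Of the 10 markers 9 were tested, and 44.4% of those were called against 8.38% of all genes. Slc2a2 and G6pc2, 2 of the markers, were higher, and 2 others, Mafa and Nkx6-1, were lower. The 8 fibroblast, 6 endothelial and 8 immune markers all stayed under 1 TPM in the 6 libraries. The 7 duct markers, 2 of which were tested, summed to between 34.1 and 39.1 TPM in control and between 42.5 and 45.3 TPM in the other group. Of the 2 tested, Spp1 rose from 21.7 ± 1.33 to 29.3 ± 0.147 TPM (SD, n = 3). The other, Krt7, was not called and went the other way, with a log2 fold change of -0.13. Alpha cell markers summed to between 329 and 347 TPM and between 307 and 342 TPM, with no call among the 4 of 7 tested. The part of such shifts in the results was not tested. Chemoreceptor genes (1480 olfactory, vomeronasal and taste receptor genes), which a beta cell line should hardly express, summed to 107.78, 91.82 and 50.06 TPM in controls 1 to 3 and to 8.86, 7.86 and 11.8 TPM in EGCG libraries 1 to 3. So the sum was higher in every control library, and lowest among the controls in control 3. None of the chemoreceptor genes reached the level needed for testing. The part of this signal in the results was not tested. A mean TPM per library was also taken over olfactory, vomeronasal and trace amine receptor genes of any biotype, a set other than the 1480. Subtracting it, at most 0.0661 TPM, from every gene gave 1030 calls of 11571. Of the genes called without subtraction, 974 were tested there and 962 kept the call. Because the amount is small beside the 1 TPM needed for testing, this fit cannot show what part the signal has.

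Nr4a1 was at 0.63, 0.78 and 0.76 TPM in the control libraries and at 46.25, 60.91 and 54.46 TPM in those given EGCG with overexpression. The groups were far apart, so the targeted gene fits the labels. Means were 0.723 ± 0.0814 and 53.9 ± 7.35 TPM (SD, n = 3), a ratio of 74.5, with a log2 fold change of 4.99 ± 0.104 (SE; limma, adjusted p = 1.53e-06). The call held with any library left out, where the highest adjusted p was 5.12e-05. Nearly all of the rise lay in a single transcript, ENSMUST00000023779, which went from 0.573 ± 0.145 to 53.4 ± 7.29 TPM, while the other 3 transcripts stayed below 1 TPM in each library. Without EGCG the overexpressing cells held Nr4a1 at 128.3, 122.52 and 165.18 TPM, values outside this comparison. The paralogs Nr4a2 (0.64 ± 0.142 and 0.84 ± 0.577 TPM) and Nr4a3 (0.19 ± 0.145 and 0.08 ± 0.0529 TPM) were too low to be tested.

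In all, 976 genes (8.38% of those tested) were called, 581 higher (4.99%) and 395 lower (3.39%) with EGCG and Nr4a1. Most differences were small: a 2-fold change in the called direction was reached by 25 higher genes (0.215%) and 30 lower genes (0.258%). The 95% interval of the fold change lay within 1.5-fold in either direction for 9993 genes (85.8%). The groups did not overlap for 4093 genes (35.2%), 2471 higher (21.2%) and 1622 lower (13.9%). At an unadjusted p under 0.05 stood 3568 genes (30.7%). Among nuclear protein-coding genes 523 of 10566 (4.95%) were higher and 347 (3.28%) lower.

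**Figure D1:**
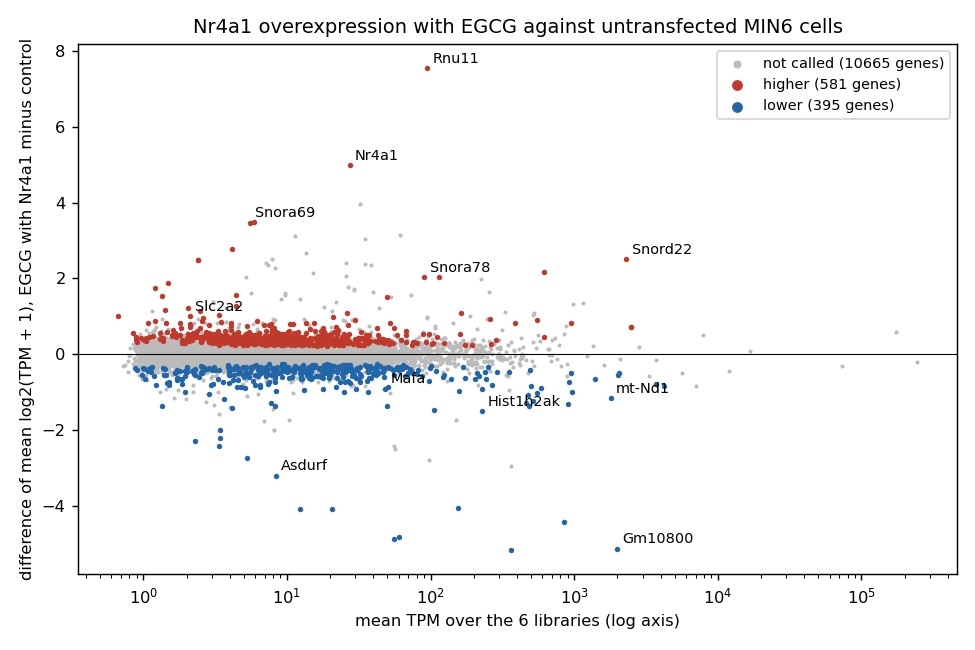
Each point is a tested gene, with its mean TPM over the 6 libraries (log axis) against the difference of mean log2(TPM + 1), EGCG with Nr4a1 minus control. Red marks the 581 genes called higher and blue the 395 called lower by limma, and most called genes lie within 1 log2 unit of 0 while Nr4a1 and Rnu11 stand highest and Gm10800 near the lowest.

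These counts depend on single libraries. Without control 1, control 2, EGCG 1, EGCG 2 or EGCG 3, limma called 51, 48, 24, 52 or 175 genes, and without control 3 it called 2188. Leaving out a library also leaves fewer libraries in the fit, which by itself can lose calls near the threshold. The part of this in the lost calls, here and below, was not tested. Each of the 976 genes kept its sign in all 6 of those fits. These fits share most libraries with the full one, so a change of sign was unlikely from the start. Of the 102 called genes that the naming rule picks, 10, 8, 4, 13 and 39 kept the call in the first 5 of these fits and 101 without control 3. The split of higher to lower calls, 581 to 395, became 461 to 560 with median-ratio scaling, 454 to 464 with quantile normalization and 1610 to 418 when TPM was rescaled to nuclear protein-coding genes. So which direction holds more genes depends on the scaling. None of the 976 genes changed sign under these scalings where it was tested, but genes chosen as called were unlikely to.

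**Figure D2:**
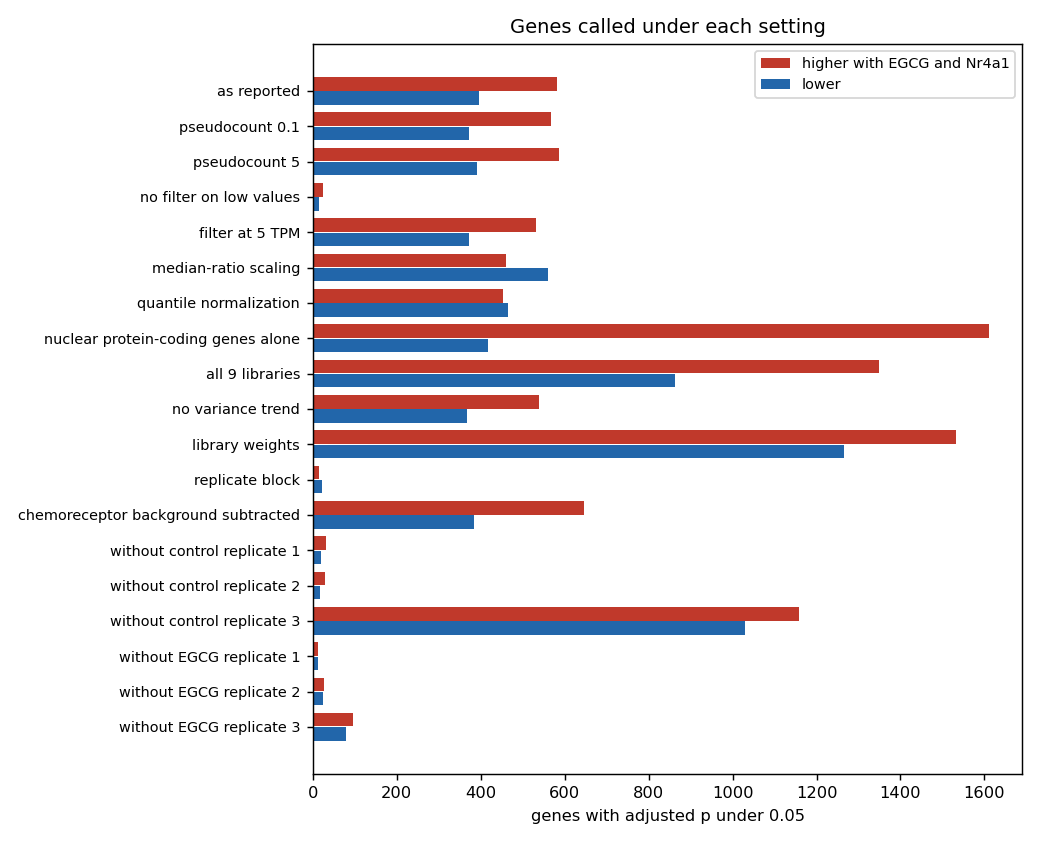
Bars count genes with an adjusted p under 0.05, higher (red) and lower (blue) with EGCG and Nr4a1, as reported and under each other setting. As reported 581 were higher and 395 lower, against 1159 and 1029 without control 3 and 12 and 12 without EGCG 1.

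Being called in all 6 fits that each leave out a library was met by 22 genes, 10 higher and 12 lower, listed here after their values were seen. The higher ones were Nr4a1, Ap3d1, Col27a1, Lmtk3, Rsc1a1, C730034F03Rik, the small RNA genes Rnu11, Snora69 and Mir8091, and the pseudogene Gm48789. Of these, Rsc1a1, Rnu11, Snora69, Mir8091 and Gm48789 had a control mean of 0 TPM. They, Nr4a1 and C730034F03Rik (0.747 TPM in control) reached the level for testing through the EGCG libraries alone. Their calls are therefore not independent of that filter. Ap3d1, a subunit of the AP-3 adaptor that sorts cargo to lysosomes and related organelles, was at 10.93, 11.56 and 9.86 TPM in control and 19.99, 20.87 and 19.26 TPM with EGCG and Nr4a1. Its log2 fold change was 0.84 ± 0.0725 (SE; limma, adjusted p = 0.00439, at most 0.0385 with a library left out). Col27a1, a fibrillar collagen, went from 2.18 ± 0.314 to 6.71 ± 0.635 TPM, and Lmtk3, a membrane kinase, from 1.15 ± 0.117 to 3.81 ± 0.491 TPM (SD, n = 3). Fmo1, a flavin monooxygenase of drug metabolism, fell from 6.43 ± 0.337 to 3.08 ± 0.414 TPM. The other 11 lower genes are Gm models with near-identical copies, among them Gm10800 and Gm10718. Of those models, Gm10715, Gm10720, Gm10722 and Gm17535 reached the level for testing through the controls alone.

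Gm10800 was at 4735.39, 4290.76 and 2589.29 TPM in control and 92.6, 68.32 and 192.65 TPM with EGCG and Nr4a1. Gm10718 was at 870.76, 793.69 and 461.28 TPM against 14.82, 12.25 and 33.21 TPM. Control 3 was the lowest control and EGCG 3 the highest of its group for both, the order that the chemoreceptor sum also followed. Reads of these models can come from many copies of the same repeat, so the values of single models are uncertain. Whether the chemoreceptor and Gm model signals share a source was not tested.

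Of 26 genes induced by low oxygen through HIF-1, 23 were tested, 5 rose, 1 fell and 17 were not called (26.1% called against 8.38% of all genes), with a median log2 fold change of 0.04 against 0.02 over all genes. The 95% interval lay within 1.5-fold for 19 of the 23. Bnip3, a mitophagy receptor and a strong HIF target, was at 360.57, 363.6 and 375.99 TPM in control and 410.27, 375.35 and 383.44 TPM with EGCG and Nr4a1. These ranges overlap only just, and the log2 fold change was 0.09 (95% interval from -0.07 to 0.25; limma, adjusted p = 0.422). Pdk1, the kinase that inhibits pyruvate dehydrogenase, gave -0.10 (-0.23 to 0.04), and the glucose transporter Slc2a1 gave 0.05 (-0.11 to 0.20). A miss of the threshold does not show equal levels, but these intervals leave out changes of 1.5-fold.

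In the cells that overexpress Nr4a1 without EGCG, the same genes were at other levels. Bnip3 was at 30.58, 30.45 and 13.76 TPM there, Pdk1 at 6.07, 5.94 and 3.93 TPM, and Slc2a1 at 4.53, 4.35 and 3.20 TPM. Control Pdk1 was 59.3 ± 2.55 TPM and Slc2a1 28.1 ± 1.92 TPM (SD, n = 3), with 55.4 ± 1.1 and 29.0 ± 0.54 TPM when EGCG was given. So the cells with EGCG lay near the control and the cells without it far below, for all 3 genes. The comparison with overexpression alone shares these libraries and was not tested here.

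The hypoxia genes that moved did so by less than 2-fold. Bhlhe40, a transcriptional repressor of the circadian clock, was at 12.91, 12.7 and 10.73 TPM in control and 18.62, 18.29 and 20.88 TPM with EGCG and Nr4a1, a rise of 0.63 ± 0.0884 (SE; limma, adjusted p = 0.0202). Ddit4, an inhibitor of mTORC1, rose from 30.7 ± 2.1 to 43.8 ± 1.69 TPM, and the histone demethylase Kdm3a from 21.9 ± 0.157 to 30.3 ± 3.55 TPM (SD, n = 3). Egln1, the oxygen sensor that marks HIF for destruction, fell from 30.33, 30.08 and 27.74 TPM to 20.01, 21.23 and 22.31 TPM (-0.45 ± 0.0667; limma, adjusted p = 0.0203). Pfkfb3 and Narf, named because they complete the count, rose by 0.34 and 0.25. Narf was not called with median-ratio or quantile scaling. None of these 6 calls held without control 1, control 2 or EGCG 1, while 1 held without EGCG 2, 3 without EGCG 3 and all 6 without control 3.

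Glycolysis enzymes gave 1 call among 18 tested of 19 (5.56% against 8.38% of all genes), with a median of 0.06. The muscle enolase Eno3, which is not on this list, was also called higher and is given below. Pgk1, which makes the first ATP of the pathway, rose from 482.47, 490.29 and 570.79 TPM to 750.19, 713.64 and 677.32 TPM (0.47 ± 0.0921; limma, adjusted p = 0.031), a call that held only without control 3 among the fits that leave out a library. Ldha, which reduces pyruvate to lactate, was at 395 ± 15.4 and 431 ± 5.92 TPM (SD, n = 3; limma, adjusted p = 0.237). For 14 of the 18 enzymes the interval lay within 1.5-fold.

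**Figure D3:**
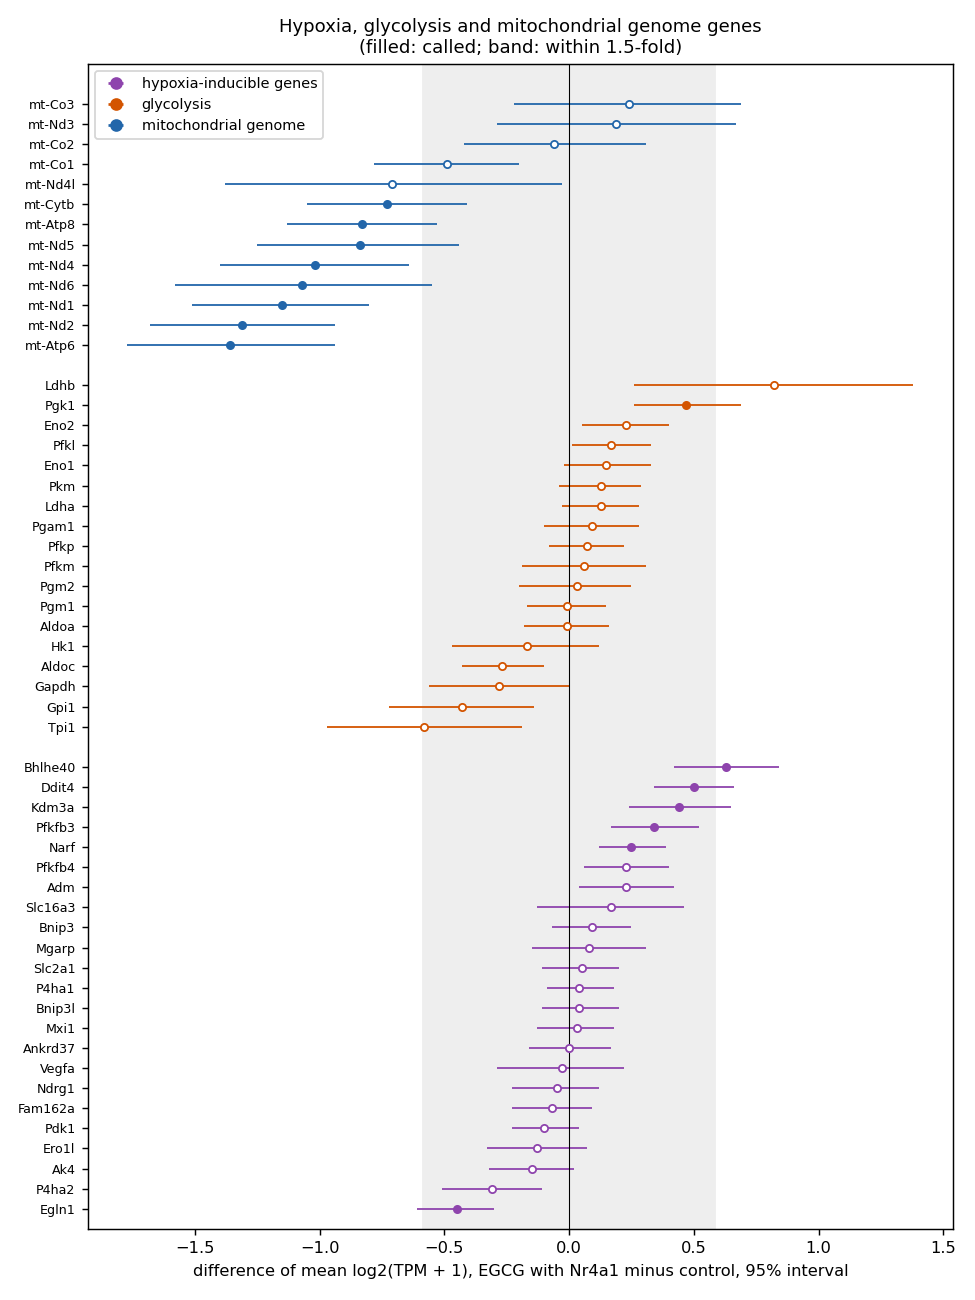
Points are log2 fold changes (difference of mean log2(TPM + 1)) of single genes with 95% intervals, filled where called, for 13 mitochondrial genome genes, 18 glycolysis genes and 23 hypoxia-inducible genes. The grey band spans 1.5-fold in either direction, and 19 of the 23 hypoxia-inducible intervals lie inside it against 1 of the 13 mitochondrial ones.

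The insulin genes did not move beyond the spread between libraries. Ins1 was at 739.0, 786.41 and 829.23 TPM in control and 708.49, 743.79 and 720.9 TPM with EGCG and Nr4a1, overlapping ranges with a log2 fold change of -0.11 (95% interval from -0.30 to 0.07; limma, adjusted p = 0.352). Ins2, the main insulin gene of the mouse, stood at 16107.9 ± 990 and 17195.2 ± 467 TPM (SD, n = 3; limma, adjusted p = 0.675). Iapp, the amyloid peptide released with insulin, was at 2625.3 ± 31.2 and 2993.8 ± 209 TPM (limma, adjusted p = 0.233), and Gcg, glucagon, at 323 ± 9.04 and 304 ± 17.3 TPM (limma, adjusted p = 0.443). Overexpressing cells without EGCG held Ins1 at 1952.41, 2073.99 and 2064.15 TPM, outside this comparison.

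Of the 13 islet hormone and peptide genes 7 were tested, with a median of -0.09. Among them 0 rose and 2 fell (28.6% called against 8.38% of all genes). Both were neuropeptides. Npy, neuropeptide Y, fell from 2350.48, 2487.43 and 2281.11 TPM to 1550.82, 1575.53 and 1781.74 TPM (-0.54 ± 0.0969; limma, adjusted p = 0.0257). Cck, cholecystokinin, fell from 66.0 ± 3.63 to 45.2 ± 6.59 TPM (SD, n = 3). Neither call held without control 1, control 2 or EGCG 1.

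Of 21 beta cell transcription factors 15 were tested, 5 fell (33.3% called against 8.38% of all genes) and 0 rose, with a median of -0.31 that ranged from -0.3743 to -0.2494 as each library was left out. Mafa, which drives insulin transcription in mature beta cells, was at 65.14, 66.59 and 57.0 TPM in control and 30.93, 38.36 and 30.5 TPM with EGCG and Nr4a1. All 3 controls lay above all 3 of the others, and the change was -0.90 ± 0.106 (SE; limma, adjusted p = 0.0137). Nkx6-1, a repressor of other islet fates, fell from 5.34, 4.67 and 4.19 TPM to 1.98, 2.94 and 2.45 TPM (-0.73 ± 0.122; limma, adjusted p = 0.0227). The pioneer factor Foxa2 fell from 17.5 ± 1.5 to 11.0 ± 1.37 TPM, and Nkx2-2 from 4.96 ± 0.421 to 3.08 ± 0.586 TPM (SD, n = 3). Neurod1, the remaining call, went from 16.2 ± 1.7 to 11.6 ± 0.699 TPM.

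Pdx1, the master regulator of pancreas and insulin genes, did not pass. It was at 44.1, 43.55 and 39.41 TPM in control and 30.09, 38.11 and 32.93 TPM with EGCG and Nr4a1 (-0.33 ± 0.0953; limma, adjusted p = 0.0748), although the groups do not overlap. The 5 calls were lost without control 1, control 2 or EGCG 1, 2 of them held without EGCG 2, 1 without EGCG 3 and all 5 without control 3. Under median-ratio, quantile and nuclear protein-coding scaling all 5 were called. Mafa was at 38.95, 38.56 and 38.49 TPM in cells that overexpress Nr4a1 without EGCG, below control. Foxa2 was also below control there, at 12.7 ± 0.448 TPM (SD, n = 3). Other factors lay above control in those cells: Pdx1 at 70.6 ± 4.03, Nkx6-1 at 6.38 ± 0.271 and Nkx2-2 at 6.75 ± 0.674 TPM. These values enter no test here.

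Prohormone processing genes and granins, the cargo proteins of secretory granules, gave 1 rise and 3 falls among 17 tested. That is 23.5% called against 8.38% of all genes. The median was -0.06 and became 0.006 when scaled to nuclear protein-coding genes. Chga, chromogranin A, fell from 1140.19, 1133.44 and 1067.24 TPM to 743.13, 817.37 and 819.31 TPM (-0.49 ± 0.0809; limma, adjusted p = 0.0227). Chgb, its relative, fell from 50.7 ± 5.46 to 35.5 ± 3.4 TPM and Pcsk1n, an inhibitor of prohormone convertase 1, from 5.82 ± 0.27 to 3.36 ± 0.889 TPM (SD, n = 3). Pam, which amidates peptide hormones, rose from 72.1 ± 0.97 to 89.9 ± 2.98 TPM. Without control 1, control 2, EGCG 1 or EGCG 2 none of the 4 was called, and with quantile normalization Chga was not.

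Genes of glucose sensing and insulin secretion gave 3 rises and 0 falls among 31 tested of 35 (9.68% called, near the 8.38% of all genes), with a median of 0.05. Slc2a2, the beta cell glucose transporter, was at 0.97, 1.42 and 0.82 TPM in control and 2.99, 2.69 and 3.73 TPM with EGCG and Nr4a1. The ratio of means was 2.93 at a low level, and the log2 fold change was 1.00 ± 0.137 (SE; limma, adjusted p = 0.0187). Among the controls only control 2 reached 1 TPM, so Slc2a2 met the level for testing through the EGCG libraries. Its call is therefore not independent of that filter. G6pc2, the islet glucose-6-phosphatase, rose from 241.33, 247.94 and 256.59 TPM to 312.91, 347.13 and 303.21 TPM (0.37 ± 0.0751; limma, adjusted p = 0.0356). Abcc8, the sulfonylurea receptor of the potassium channel, rose from 33.1 ± 1.95 to 42.8 ± 1.94 TPM (SD, n = 3). None of the 3 calls held without control 1, EGCG 1 or EGCG 2, and 1 held without control 2 or without EGCG 3. Slc2a2 was at 0.64, 0.81 and 0.49 TPM in overexpressing cells without EGCG.

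Because Nr4a1 binds the NBRE octamer AAAGGTCA as a monomer, promoters of 300 bases were searched for it on both strands in RefSeq's promoters on the GRCm38.p6 build. The octamer was in 495 of 32851 promoters (1.51%), in 6 of 411 (1.46%) of protein-coding genes called higher, in 2 of 245 (0.816%) of those called lower and in 74 of 7729 (0.957%) of those not called. The first share counts all promoters in the table, while the others count genes with the octamer in any of their promoters. It is therefore not like for like with them. The shares by gene are close, and a match is only a match of letters. The 80 named genes with a promoter in the table included 2 with the octamer, Slc2a2, which rose, and Hspe1, which fell. Their promoters are shown on the plus strand, the gene's own strand, with the octamer in capitals, 23 bases before the start for Slc2a2 (chr3:28697653-28697952) and 49 before it for Hspe1 (chr1:55087898-55088197).
Slc2a2: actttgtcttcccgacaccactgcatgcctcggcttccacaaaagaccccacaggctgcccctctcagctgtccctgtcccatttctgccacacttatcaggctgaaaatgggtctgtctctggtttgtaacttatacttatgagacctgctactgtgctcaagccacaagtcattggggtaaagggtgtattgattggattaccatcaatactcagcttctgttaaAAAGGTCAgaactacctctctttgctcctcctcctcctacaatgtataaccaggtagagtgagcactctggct
Hspe1: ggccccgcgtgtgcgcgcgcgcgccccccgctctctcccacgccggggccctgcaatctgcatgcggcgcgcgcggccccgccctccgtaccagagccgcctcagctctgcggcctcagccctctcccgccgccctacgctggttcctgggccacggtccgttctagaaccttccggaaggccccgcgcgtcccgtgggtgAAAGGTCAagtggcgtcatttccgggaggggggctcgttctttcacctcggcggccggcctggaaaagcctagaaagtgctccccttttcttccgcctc

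The mitochondrial genome encodes 13 subunits of the respiratory chain, and the transcripts of 8 fell and 0 rose, with a median of -0.83 against 0.02 over all genes (61.5% called against 8.38%). Their summed share of TPM was 2.247%, 2.199% and 1.881% in control and 1.196%, 1.272% and 1.396% with EGCG and Nr4a1. mt-Nd1, a complex I subunit, fell from 2711.39, 2697.94 and 2037.15 TPM to 959.94, 1153.51 and 1217.18 TPM (-1.15 ± 0.149; limma, adjusted p = 0.0187). mt-Nd2, of the same complex, fell from 1296.9 ± 218 to 521 ± 75.7 TPM, and mt-Atp6, of the ATP synthase, from 702 ± 181 to 268 ± 17.3 TPM (SD, n = 3). Here too control 3 was the lowest control. mt-Nd4, mt-Nd5, mt-Nd6, mt-Atp8 and mt-Cytb were the other calls, with log2 fold changes between -1.07 and -0.73.

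The other 5 were not called. mt-Co1, of cytochrome oxidase, was at 6695.03, 6887.8 and 6014.35 TPM against 4440.18, 4410.61 and 5116.32 TPM, groups that do not overlap but miss the threshold (-0.49 ± 0.122; limma, adjusted p = 0.0527). mt-Co2 (-0.06), mt-Co3 (0.24), mt-Nd3 (0.19) and mt-Nd4l (-0.71) overlapped between groups. mt-Atp6 overlaps both mt-Atp8 and mt-Co3 in the annotation, and mt-Nd6 lies opposite mt-Nd5, so how reads were shared between them is uncertain. The 2 mitochondrial ribosomal RNAs held 9.49% ± 0.462 of TPM in control and 7.60% ± 0.372 with EGCG and Nr4a1 (SD, n = 3), and neither was called. Of the 8 calls, 1 held without control 1, 0 without control 2, EGCG 1 or EGCG 2, 5 without EGCG 3 and 8 without control 3. With quantile normalization 6 of them were called. The median stayed between -0.9262 and -0.7269 in those 6 fits.

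Respiratory chain subunits encoded in the nucleus gave 4 rises and 0 falls among 49 (8.16% called against 8.38% of all genes) and a median of 0.07. Ndufa2, of complex I, rose from 40.29, 36.97 and 49.85 TPM to 70.17, 71.78 and 63.51 TPM (0.69 ± 0.113; limma, adjusted p = 0.0227). Ndufa9, also of complex I, rose from 15.4 ± 1.84 to 22.4 ± 1.18 TPM, Cox7a2 from 80.2 ± 7.51 to 116 ± 10.7 TPM and the ATP synthase subunit Atp5e from 20.3 ± 2.31 to 29.7 ± 3.28 TPM (SD, n = 3). Only 2 of the 4 held without EGCG 3 and none without control 1, control 2, EGCG 1 or EGCG 2. In mitochondrial ribosomal proteins 3 of 78 (3.85%) fell and 0 rose, with a median of -0.01 (0.0487 with nuclear protein-coding scaling). Those were Mrps35 (-0.55 ± 0.102), Mrpl34 (-0.43 ± 0.0884) and Mrps21 (-0.33 ± 0.0564).

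**Figure D4:**
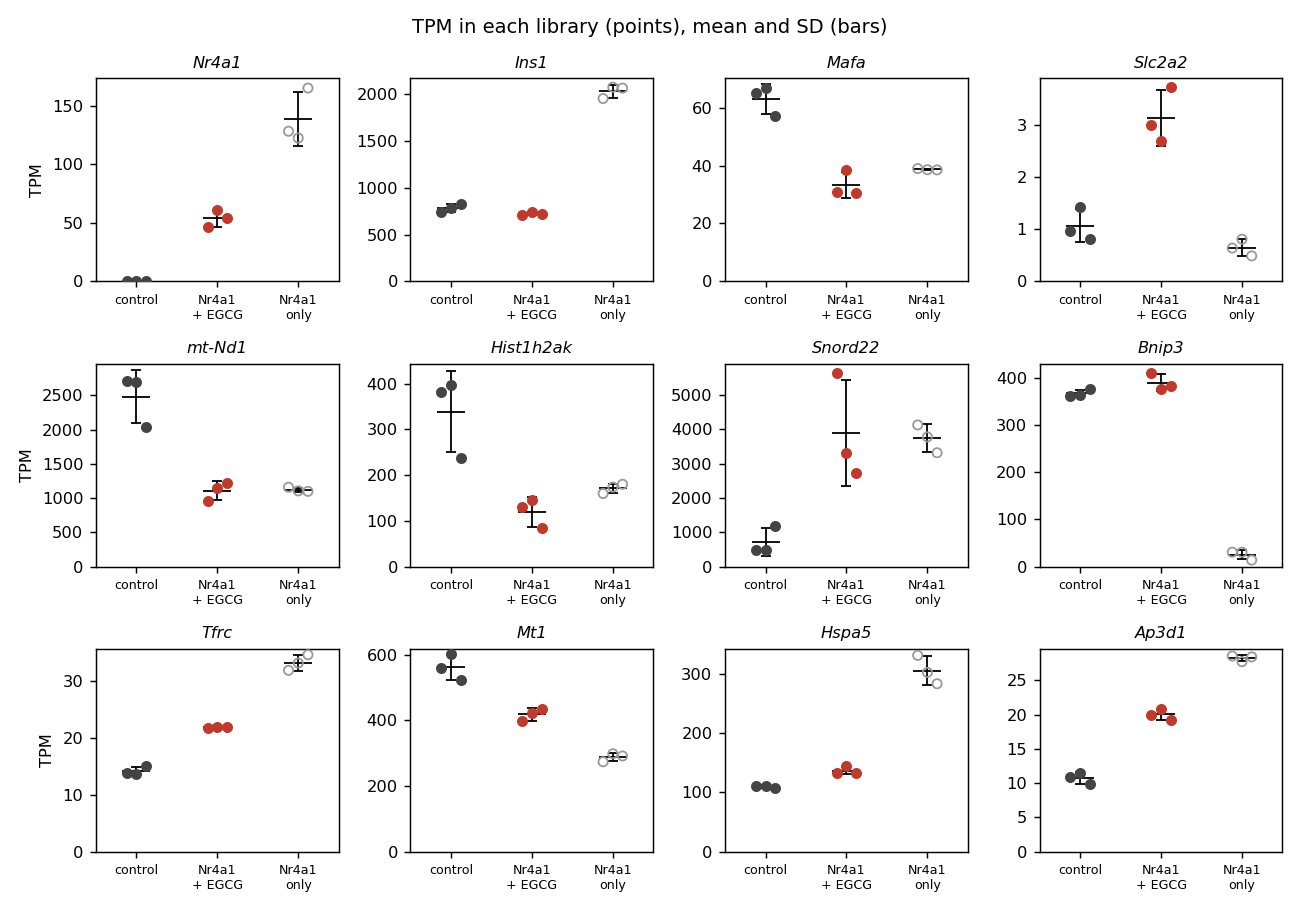
TPM of 12 genes in each library (points), with the mean and SD as bars, for control (dark), EGCG with Nr4a1 (red) and, for reference only, Nr4a1 without EGCG (open). Nr4a1 rises from below 1 TPM in control, Mafa and mt-Nd1 lie lower than control, and Ins1 and Bnip3 with EGCG lie near the control values.

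Of 2132 genes of small structured RNAs 119 were tested, 22 rose, 0 fell and 97 were not called (18.5% called against 8.38% of all genes), with a median of 0.82 against 0.02 over all genes. Some members reached the level for testing through the EGCG libraries alone, among them Rnu11, Snora69, Gm24289 and a Snora43 model. The share called, the split by direction and the median are therefore not independent of that filter. Small nucleolar RNAs (snoRNAs), which guide the modification of ribosomal and spliceosomal RNA, gave 13 of the rises among 83 tested, and small nuclear RNAs of the spliceosome 5 among 19. In each library snoRNA genes held 1.035%, 0.9411% and 1.359% of TPM in control and 2.436%, 2.019% and 1.610% with EGCG and Nr4a1. The 5 sequences below are small RNA genes among the highest that rose, shown so that the family each belongs to can be read from its own letters. They are from GENCODE M21 and the capitals mark the part that defines the family: the site bound by Sm proteins in Rnu11, the ACA box near the 3' end of Snora69, Snora78 and Snora3, and the D box near the 3' end of Snord22.
Rnu11: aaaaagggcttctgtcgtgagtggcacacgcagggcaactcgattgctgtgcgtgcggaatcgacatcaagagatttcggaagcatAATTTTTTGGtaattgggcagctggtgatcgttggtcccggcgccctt
Snora69: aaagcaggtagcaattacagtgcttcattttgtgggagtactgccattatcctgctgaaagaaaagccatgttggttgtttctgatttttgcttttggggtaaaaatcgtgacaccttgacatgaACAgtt
Snora78: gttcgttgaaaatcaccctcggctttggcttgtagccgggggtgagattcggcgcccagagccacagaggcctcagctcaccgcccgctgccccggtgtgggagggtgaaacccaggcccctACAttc
Snora3: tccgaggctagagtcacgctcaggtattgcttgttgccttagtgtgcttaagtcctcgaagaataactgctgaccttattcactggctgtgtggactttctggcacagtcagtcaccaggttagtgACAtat
Snord22: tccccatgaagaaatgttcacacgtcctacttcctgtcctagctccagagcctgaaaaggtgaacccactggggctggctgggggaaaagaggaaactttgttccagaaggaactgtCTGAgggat

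Rnu11, the U11 RNA that recognises the 5' splice site of the rare minor introns, was listed at 0 in all 3 controls and at 199.69, 221.52 and 144.1 TPM with EGCG and Nr4a1 (limma, adjusted p = 1.53e-06). No fold is given against a group listed at 0, and such a 0 can be a failed estimate. A long noncoding RNA on the opposite strand of the same place, Gm28872, looked up after the values were seen, was at 832.04, 803.35 and 521.96 TPM in control and 241.63, 281.35 and 397.05 TPM with EGCG and Nr4a1 (-1.23 ± 0.233; limma, adjusted p = 0.0293). It fell where Rnu11 rose. The strand setting of the counting is not given in the sources used here, so reads of this pair cannot be told apart.

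Snora69, an H/ACA snoRNA, was also listed at 0 in the controls and at 16.77, 5.5 and 10.73 TPM in the other group (limma, adjusted p = 0.00559). Gm24289, a small RNA of the Cajal body, was listed at 0 and at 13.45, 4.41 and 17.35 TPM. Both reached the level for testing only through the EGCG libraries, as Rnu11 did. Snord22, a C/D snoRNA that lies within the Snhg1 transcript, rose from 491.49, 484.62 and 1190.81 TPM to 5643.73, 3309.84 and 2737.65 TPM (2.5 ± 0.402; limma, adjusted p = 0.0226). Its host Snhg1 was at 48.4 ± 7.39 and 52.8 ± 2.92 TPM (SD, n = 3; limma, adjusted p = 0.446). Snora78 rose from 16.55, 47.05 and 44.79 TPM to 166.83, 177.39 and 89.23 TPM (2.04 ± 0.426; limma, adjusted p = 0.0364).

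The spread within groups was wide for these RNAs. Snord118, the U8 RNA needed to mature the large ribosomal subunit, ranged from 48.5 to 112.11 TPM with EGCG and Nr4a1 against 24.6 ± 5.2 TPM in control. Snora3 rose from 16.6 ± 5.41 to 35.5 ± 7.87 TPM and overlaps its host Rpl27a, which was not called. Snora43 has 2 overlapping gene models, and the model that rose went from 0.323 ± 0.56 to 8.02 ± 3.61 TPM (SD, n = 3). That model, too, reached the level for testing only through the EGCG libraries. Of the 22 calls, 2, 3, 3, 3 and 10 held without control 1, control 2, EGCG 1, EGCG 2 and EGCG 3, and 22 without control 3. Spin columns of the kind named in the labels keep short RNAs incompletely, and the part of RNA recovery in these values was not tested.

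Replication-dependent histone genes gave 4 rises and 9 falls among 63 tested of 67 (20.6% called against 8.38% of all genes), with a median of -0.06 (0.0077 with nuclear protein-coding scaling). They are made in S phase, and most of their mRNAs lack a poly(A) tail. Hist1h2ak, an H2A gene, fell from 381.26, 397.86 and 237.45 TPM to 131.07, 146.75 and 83.71 TPM (-1.49 ± 0.26; limma, adjusted p = 0.0246). Hist1h2af, Hist1h2an and Hist1h2ap fell by 1.46, 1.37 and 1.27 on the log2 scale. Hist2h2ac fell from 208 ± 13.7 to 109 ± 24 TPM and Hist2h3b from 297 ± 27.4 to 160 ± 36.3 TPM (SD, n = 3), and the replication-independent H2afj from 17.5 ± 2.09 to 8.74 ± 1.82 TPM. Hist1h3f rose from 3.74 ± 1.05 to 6.88 ± 1.13 TPM. Histone genes are near-identical copies, so the sharing of reads among them is uncertain: members went both ways within the H3 family. None of the 13 calls held without control 1, control 2, EGCG 1 or EGCG 2, and 3 held without EGCG 3. With median-ratio scaling 10 of the 13 were called and Hist1h3f, Hist1h3g and Hist2h2bb were not, and with quantile normalization 11 were called and Hist1h3f and Hist1h3i were not.

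In iron and metal handling, 1 gene rose and 3 fell among 14 tested of 15 (28.6% called against 8.38% of all genes). The median was 0.09. Tfrc, the transferrin receptor that brings iron into cells, was at 13.74, 13.69 and 14.98 TPM in control and 21.77, 21.91 and 21.86 TPM with EGCG and Nr4a1. Its rise of 0.60 ± 0.0587 (SE; limma, adjusted p = 0.00807) held in 5 of the 6 fits that leave out a library, and the adjusted p was 0.0644 without EGCG 1. Fth1, the heavy chain of the iron store ferritin, fell from 68.92, 63.95 and 55.31 TPM to 43.0, 49.66 and 47.0 TPM (-0.42 ± 0.0958; limma, adjusted p = 0.0447). The metallothioneins, which bind zinc and copper, fell together: Mt1 from 561 ± 39.1 to 418 ± 18.6 TPM and Mt2 from 405 ± 24.7 to 296 ± 14.5 TPM (SD, n = 3). Fth1 and both metallothioneins were not called without control 1, control 2, EGCG 1, EGCG 2 or EGCG 3, and Mt1 was not with quantile normalization. In overexpressing cells without EGCG, Tfrc was at 31.85, 33.13 and 34.59 TPM.

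No gene of the NRF2 and antioxidant list passed, 0 of 30 tested in either direction, with a median of 0.01 and the interval within 1.5-fold for 28. At an unadjusted p under 0.05 limma gave 7 of 30, 3 higher and 4 lower, against 30.7% of all genes. In this list 8 of 30 members had groups that did not overlap, 3 higher and 5 lower, against 35.2% of all genes. NRF2 is the factor that electrophiles and oxidants release to induce detoxifying enzymes. Hmox1, heme oxygenase, was at 13.5 ± 0.296 and 13.3 ± 0.897 TPM, and Gclc, which starts glutathione synthesis, at 4.26 ± 0.24 and 4.42 ± 0.199 TPM (SD, n = 3; limma, adjusted p = 0.871 and 0.694). The classic target Nqo1 was at 0.0633 ± 0.0569 and 0.03 ± 0.0265 TPM, too low to be tested.

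The integrated stress response list gave 0 rises and 3 falls among 26 tested (11.5% called against 8.38% of all genes). Its median was -0.08. Cebpb, a bZIP factor, fell from 7.82, 9.23 and 6.81 TPM to 4.11, 4.31 and 3.83 TPM (-0.81 ± 0.104; limma, adjusted p = 0.0187). Atf3 fell from 10.6 ± 1.81 to 5.96 ± 1.11 TPM and the glutathione-degrading enzyme Chac1 from 33.0 ± 1.88 to 23.8 ± 2.06 TPM (SD, n = 3). Ddit3, the factor CHOP, was at 29.8 ± 1.59 and 28.1 ± 0.792 TPM (limma, adjusted p = 0.405). Immediate early genes gave 0 rises and 2 falls among 17 tested of 26 (11.8% called), with a median of -0.08. Jun fell from 9.56, 9.07 and 7.83 TPM to 5.69, 5.5 and 5.46 TPM (-0.58 ± 0.0793; limma, adjusted p = 0.0187), and Jund from 34.6 ± 0.273 to 20.4 ± 3.18 TPM. Fos, their partner in AP-1, was at 3.36 ± 0.495 and 2.26 ± 0.557 TPM (limma, adjusted p = 0.105). Of these 5 calls, 1 held without control 2, 2 without EGCG 3, 5 without control 3 and 0 without control 1, EGCG 1 or EGCG 2.

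Chaperones of the endoplasmic reticulum and genes of the unfolded protein response gave 4 rises and 0 falls among 30. That is 13.3% called against 8.38% of all genes, with a median of 0.06. Hspa5, the chaperone BiP, rose from 111.42, 110.14 and 107.61 TPM to 133.06, 143.96 and 133.03 TPM (0.31 ± 0.0612; limma, adjusted p = 0.0313). Hyou1, its exchange factor, rose from 28.1 ± 1.34 to 38.1 ± 1.12 TPM, the disulfide isomerase Pdia4 from 22.0 ± 0.289 to 27.1 ± 1.17 TPM and the factor Xbp1 from 20.9 ± 0.712 to 25.2 ± 0.975 TPM (SD, n = 3). These rises were under 1.5-fold by means. Among them none held without control 1, control 2, EGCG 1, EGCG 2 or EGCG 3, and Xbp1 was not called with median-ratio or quantile scaling. Hspa5 was at 330.88, 302.05 and 283.0 TPM in cells that overexpress Nr4a1 without EGCG.

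Heat shock chaperones gave 1 rise and 1 fall among 22 tested of 24, with a median of -0.08. That is 9.09% called, near the 8.38% of all genes. Cct3, a subunit of the TRiC chaperonin, rose from 29.8 ± 2.05 to 42.4 ± 5.35 TPM, and Hspe1, the mitochondrial co-chaperonin whose promoter is printed above, fell from 72.31, 69.6 and 62.94 TPM to 50.94, 50.02 and 53.56 TPM (-0.40 ± 0.0706; limma, adjusted p = 0.0248). Hspe1 shares its promoter region and part of its exons with Hspd1, which was not called. Both calls were lost without control 1, control 2, EGCG 1 or EGCG 2. Neither the 34 proteasome genes nor the 20 aminoacyl-tRNA synthetases had a member called, with medians of 0.05 and 0.02. Unadjusted p-values under 0.05 from limma numbered 10 of 34 and 2 of 20, against 30.7% of all genes. The interval lay within 1.5-fold for 32 of the 34 and for 20 of the 20. The proteasome subunit Psmb5, which carries the chymotrypsin-like site, was at 23.3 ± 3.97 and 25.1 ± 3.01 TPM (SD, n = 3; limma, adjusted p = 0.606).

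Cyclins, replication and mitosis genes gave 3 rises and 0 falls among 37 tested of 39 (8.11% called, near the 8.38% of all genes), with a median of 0.01. Ccnb1, the mitotic cyclin, rose from 28.43, 28.55 and 31.97 TPM to 41.15, 40.06 and 35.95 TPM (0.39 ± 0.0774; limma, adjusted p = 0.0336). Mcm5, of the replicative helicase, rose from 31.3 ± 1.3 to 37.8 ± 1.83 TPM and the mitotic kinase Aurkb from 11.3 ± 0.368 to 13.8 ± 0.163 TPM (SD, n = 3). Mki67, a general mark of cycling cells, was at 61.0 ± 8.44 and 58.6 ± 4.55 TPM and Ccnd2, the beta cell D cyclin, at 18.8 ± 0.964 and 19.4 ± 1.03 TPM (limma, adjusted p = 0.785 and 0.692). No member of the 3 held its call without control 1, control 2, EGCG 1, EGCG 2 or EGCG 3, and Mcm5 was not called with median-ratio scaling.

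CDK inhibitors and p53 targets gave 2 rises and 1 fall among 17 tested of 21 (17.6% called against 8.38% of all genes). The median was -0.02 (0.0239 with nuclear protein-coding scaling). Trp53 itself rose from 8.39, 8.95 and 8.82 TPM to 11.91, 12.01 and 11.69 TPM (0.41 ± 0.0558; limma, adjusted p = 0.0188). Its main arrest target Cdkn1a was at 21.8 ± 1.1 and 23.0 ± 0.968 TPM (SD, n = 3; limma, adjusted p = 0.497). The inhibitor Cdkn2d rose from 14.5 ± 1.09 to 18.2 ± 0.288 TPM and Cdkn1b fell from 36.1 ± 3.12 to 28.5 ± 0.801 TPM. In the BCL2 family and caspases 1 of 19 tested (5.26%) rose, the pro-apoptotic Bmf, from 1.16 ± 0.234 to 1.99 ± 0.159 TPM. Bmf is near the level for testing, with control 2 at 0.89 TPM, and the controls alone would not have met it. Txnip, the glucose-responsive inhibitor of thioredoxin, fell from 16.99, 16.94 and 16.32 TPM to 11.9, 10.95 and 13.52 TPM (-0.44 ± 0.0805; limma, adjusted p = 0.0271), while the other 5 genes on its list, Arrdc3, Arrdc4, Mlxipl, Mlx and Mlxip, were not called. All 5 of these calls were lost without control 1, control 2, EGCG 1 or EGCG 2, and 2 of the 5 held without EGCG 3. Median-ratio scaling lost Cdkn2d and quantile normalization lost Bmf.

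Cholesterol synthesis gave 3 rises and 0 falls among 23 (13.0% called against 8.38% of all genes), with a median of 0.13. Srebf2, the factor that governs the pathway, rose from 7.8, 7.54 and 7.8 TPM to 9.59, 10.32 and 9.82 TPM (0.32 ± 0.0576; limma, adjusted p = 0.025). Mvd, the mevalonate pathway decarboxylase, rose from 3.60 ± 0.137 to 4.56 ± 0.223 TPM (SD, n = 3). Hmgcs1, an early enzyme of the pathway, was at 17.4 ± 1.25 and 17.0 ± 0.95 TPM (limma, adjusted p = 0.801). In fatty acid synthesis 3 rose and 1 fell among 15 tested of 17 (26.7% called), with a median of 0.18. Fasn, the synthase, rose from 6.29, 6.91 and 6.08 TPM to 8.66, 10.31 and 10.37 TPM (0.54 ± 0.0858; limma, adjusted p = 0.0223). Scd1, the desaturase, rose from 30.2 ± 0.8 to 39.6 ± 1.57 TPM and the elongase Elovl1 from 11.8 ± 0.413 to 14.8 ± 0.744 TPM, whereas the citrate carrier Slc25a1 fell from 30.2 ± 1.67 to 24.6 ± 1.1 TPM. All 7 calls were lost when control 1, control 2, EGCG 1, EGCG 2 or EGCG 3 was left out, and without control 3 Mvd alone was lost. With quantile normalization 1 of the 3 cholesterol synthesis calls held, and Mvd was not called.

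Autophagy and lysosome genes gave 4 rises and 1 fall among 32 tested of 33 (15.6% called against 8.38% of all genes). The median was 0.10. Atg16l1, which directs lipidation of LC3, rose from 6.35, 6.68 and 6.32 TPM to 8.72, 8.73 and 8.78 TPM (0.39 ± 0.0556; limma, adjusted p = 0.0203). The lysosomal protease Ctsd rose from 42.3 ± 3.5 to 52.5 ± 1.6 TPM and prosaposin, Psap, from 82.0 ± 4.66 to 102 ± 4.5 TPM (SD, n = 3). Atg3, the LC3 conjugating enzyme, fell from 7.29 ± 0.326 to 5.42 ± 0.325 TPM. None of the 5 was called with control 1, control 2, EGCG 1, EGCG 2 or EGCG 3 left out, and median-ratio scaling lost Ctsd and Psap.

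Cytosolic ribosomal proteins gave 0 rises and 4 falls among 82 tested of 85 (4.88% called against 8.38% of all genes). Their median was 0.10. Rpl35 fell from 174.72, 180.78 and 153.33 TPM to 101.69, 103.53 and 121.47 TPM (-0.64 ± 0.0969; limma, adjusted p = 0.0213), and Rpl22, Rpl14 and Rpl15 by 0.64, 0.48 and 0.33 on the log2 scale. The pseudogene Rpl14-ps1 fell from 33.5 ± 8.36 to 16.2 ± 3.53 TPM (SD, n = 3). Ribosomal protein genes have many near-identical pseudogenes, so these values are uncertain. With quantile normalization Rpl14 and Rpl15 were not called. Of the 4 calls only 1 held without EGCG 3, and 0 without control 1, control 2, EGCG 1 or EGCG 2. Interferon, nucleic acid sensing and MHC class I genes had 0 calls among 21 tested of 39, with a median of 0.07 and 2 of 21 at an unadjusted limma p under 0.05 against 30.7% of all genes, and the interferon-induced Ifit1 and Isg15 were both below the level for testing, at 0.227 ± 0.0208 and 0.383 ± 0.147 TPM with EGCG and Nr4a1.

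**Figure D5:**
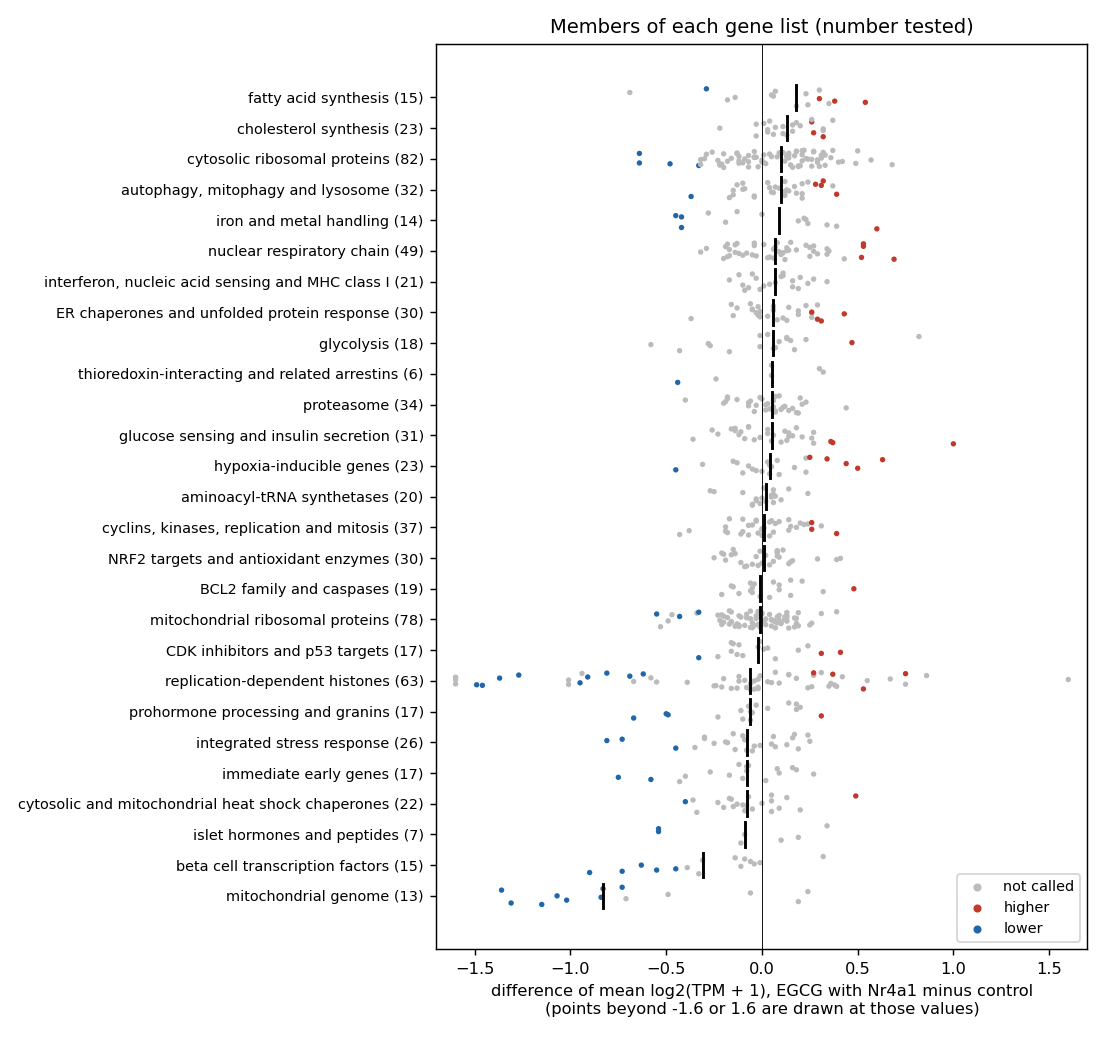
Each point is a tested gene of a list (number tested in brackets), placed by its difference of mean log2(TPM + 1), EGCG with Nr4a1 minus control, with red for higher, blue for lower, grey for not called and a black bar at the list's median. Medians run from -0.83 for the mitochondrial genome and -0.31 for beta cell transcription factors to 0.18 for fatty acid synthesis, and small noncoding RNA genes are not drawn.

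Outside the lists, the protein-coding genes that rose most at a mean of at least 5 TPM, after Nr4a1, changed by at most 0.90. Mdh1, the cytosolic malate dehydrogenase of the NADH shuttle, rose from 19.76, 17.33 and 25.06 TPM to 41.94, 35.39 and 39.95 TPM (0.90 ± 0.133; limma, adjusted p = 0.0203). Cpne1, a calcium-binding copine, rose from 4.17, 3.45 and 4.6 TPM to 8.36, 9.56 and 7.24 TPM and shares exons with Rbm12, which was not called. Ddx39, an RNA helicase of mRNA export, rose from 6.85, 7.2 and 8.43 TPM to 13.71, 13.94 and 13.14 TPM (0.79 ± 0.0809; limma, adjusted p = 0.00925). Every EGCG library lay above every control for these genes, which the naming rule requires. Over all genes tested, 35.2% had groups that did not overlap. The call of Ddx39 held in 5 of the 6 fits that leave out a library, where its adjusted p was at most 0.0668.

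Upk3a, a urothelial membrane protein, rose from 37.3 ± 6.1 to 66.3 ± 3.53 TPM, Grn, progranulin, from 7.70 ± 0.824 to 14.3 ± 2.62 TPM, and the lens crystallin Crybb3 from 16.2 ± 1.43 to 27.4 ± 1.91 TPM (SD, n = 3). Muscle enolase, Eno3, rose from 5.28 ± 0.967 to 9.70 ± 1.07 TPM, Car15, a carbonic anhydrase, from 5.38 ± 0.444 to 10.2 ± 2.03 TPM, and Rgs11, a regulator of G protein signalling, from 13.3 ± 1.69 to 22.2 ± 0.762 TPM. Tspan4, a tetraspanin, rose from 4.85 ± 1.06 to 8.96 ± 0.126 TPM. Its neighbour Chid1 rose from 5.97 ± 0.58 to 10.3 ± 1.13 TPM, and the exons of the pair overlap on opposite strands. Car15, Rgs11 and Crybb3 kept their calls in 3 of the 6 fits that leave out a library.

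The protein-coding genes with the lowest changes by the naming rule were, beside the histone and mitochondrial ones, Trir, Scand1 and Asdurf. Trir, an RNase that interacts with the telomerase RNA, fell from 49.55, 51.11 and 45.45 TPM to 23.02, 28.48 and 21.58 TPM (-0.98 ± 0.107; limma, adjusted p = 0.0118). It kept its call in 4 of the 6 fits. Scand1, a SCAN domain protein, fell from 12.36, 12.69 and 8.85 TPM to 4.92, 5.71 and 2.09 TPM (-1.29 ± 0.287; limma, adjusted p = 0.0422). Asdurf fell from 18.93, 18.03 and 9.79 TPM to 0.39, 0.0 and 2.89 TPM (-3.19 ± 0.491; limma, adjusted p = 0.0213). Control 3 was again the lowest control for Scand1 and Asdurf. Asdurf shares exons with Asnsd1 on the same strand, which was at 13.4 ± 0.736 and 14.6 ± 0.548 TPM (SD, n = 3) and was not called, so how the authors' estimation shared reads between them is uncertain. Hyi, of another biotype, fell from 15.5 ± 1.08 to 11.5 ± 0.26 TPM.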

How the data were processed

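Total RNA of MIN6 cells had been extracted with an RNeasy kit and made into libraries with a TruSeq stranded total RNA kit, per the labels' protocols. The authors deposited a table of TPM per Ensembl transcript, with 1 column per library and equal column sums. The tools RSEM 1.2.31, STAR 2.7.1a, cutadapt 2.8, FastQC 0.11.9 and bcl2fastq 2.20 and the build GRCm39 are named per the submitters' processing notes. Strand setting, filters and annotation release were not given in the sources used here.

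The sample titles gave the groups and replicate numbers. Of 142435 transcript identifiers, 138346 (97.13%) matched GENCODE M21, an older annotation used for names, biotypes, overlaps of exons and small RNA sequences, and TPM was summed per gene. The 6 libraries were tested with limma 3.58.1 in R 4.3.3, two-sided, on log2(TPM + 1), with a mean-variance trend and Benjamini-Hochberg adjustment at 0.05, keeping genes that reach 1 TPM in 3 or more libraries. Count models were not applied, because TPM holds no counts. An exact permutation test of 3 against 3 libraries cannot go below p = 0.1 and was not used. Python 3.11.15 with pandas 2.3.3 did the rest.

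The comparison, the 30 gene lists and 8 marker lists, the tests and the alternatives were chosen with earlier results of these data known. The search terms of the ribosomal protein and histone lists were corrected after the table was opened, and a symbol with several gene models was taken at the model of highest TPM. Genes named are Nr4a1, the 15 highest and 15 lowest called protein-coding genes that average 5 TPM or more over the 6 libraries and have non-overlapping groups and a symbol other than a predicted, RIKEN or clone name, the 6 highest and 6 lowest of other biotypes by the same rule, up to 4 called genes per list with the greatest change, and a fixed panel, some of which are not reported here. Neurod1, mt-Nd5, mt-Atp8, mt-Cytb, mt-Co2, mt-Co3, Pfkfb3, Narf, the Gm models, the genes kept in all fits that leave out a library and the genes that overlap or host a named one were chosen after their values were seen.

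In simulated data with the real genes, 55.8% of genes changed by 0.5 and 92% of those changed by 1 on the log2 scale were recovered, with 4.41% of calls false (11641 genes, 200 changed, 5 draws). Noise was drawn independently for each gene and library there. In the real data 976 genes were called and the counts hung on single libraries. The 4.41% is therefore not the false share of the 976 calls. Same-numbered libraries of the 2 groups did not deviate together (r = -0.00514, 0.0236 and -0.2), so the numbers were not taken as pairs. The alternatives were other pseudocounts, filters, scalings, libraries in the fit, variance models, a replicate block, subtraction of chemoreceptor signal, transcripts in place of genes and leaving out each library.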

Additional observations from a re-analysis of the deposited data

Results flagged for a closer look

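Transcripts whose identifier matched no gene of the annotation held between 19.518% and 20.572% of the TPM of the 6 libraries and stand outside the comparison by gene. Of these, 200 were tested in the same way, and 9 were higher and 4 lower with EGCG and Nr4a1 than in control (limma, Benjamini-Hochberg adjusted p under 0.05). They are singled out because they are a signal in data that the comparison does not use, and no gene name can be given for them here.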

How the results depend on the processing

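The 976 calls (581 higher, 395 lower) became 40 (24 and 16) with no filter on low values, over 38674 genes, 2028 (1610 and 418) with nuclear protein-coding genes alone, 2210 (1348 and 862) with all 9 libraries in the fit, 2797 (1532 and 1265) with library weights, and 629 (351 and 278) with transcripts tested in place of genes. With a replicate block 36 were called (14 and 22), and no library correlated best with its own number. Leaving out 1 library gave from 24 calls (12 and 12, without EGCG 1) to 2188 (1159 and 1029, without control 3). The other alternatives, namely pseudocounts of 0.1 and 5, a filter at 5 TPM, median-ratio and quantile scaling, no variance trend and chemoreceptor subtraction, gave between 904 and 1030 calls. The count of 9993 genes with an interval within 1.5-fold became 35871 with no filter and 6136 with the filter at 5 TPM, which test more and fewer genes. For the other changes the cause was not tested. Some differences near 0 turned sign: the list medians of prohormone processing (-0.06) to 0.006 with nuclear protein-coding genes alone, iron and metal handling (0.09) to -0.0001 with no filter, and interferon genes (0.07) to -0.0002 with the filter at 5 TPM. With nuclear protein-coding genes alone Hmgcs1 turned to 0.0316, Hmox1 to 0.0432 and Mki67 to 0.0142. As 1 library was left out, Hmgcs1 ranged from -0.0884 to 0.005, Hmox1 from -0.0563 to 0.0324, Mki67 from -0.17 to 0.0088, Psmb5 from -0.0112 to 0.2272 and Slc2a1 from -0.0047 to 0.0907. None of these genes was called. Depth is unknown, so no count-based limit on low genes can be given.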
